A study of Homo sapiens with 6 samples.

Results

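The genes described are 43 members of the amino acid response that the transcription factor ATF4 directs, together with the cytosolic tRNA synthetases, in A549 cells with and without recombinant human surfactant protein D (rhSP-D). They were found by symbol among the 57773 genes of the deposited count table, and all 43 were matched, the synthetases under their older symbols (AARS for AARS1 and so on). They fall into 7 regulators, 6 serine and one-carbon enzymes, 3 other enzymes, 5 amino acid transporters, 4 growth and stress targets and 18 tRNA synthetases. A549 is an established human lung adenocarcinoma line, and surfactant protein D is a collectin that alveolar cells secrete. One group of 3 samples received rhSP-D at 10 µg/ml for 48 h and the other 3 received the same volume of the buffer used to elute the protein, here called vehicle, for 48 h. All samples were grown in RPMI-1640 with fetal bovine serum, so both groups had amino acids in the medium, and no genetic change or second agent is given.

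In the integrated stress response, kinases that sense uncharged tRNA, unfolded protein, double-stranded RNA or haem shortage phosphorylate the initiation factor eIF2, which lowers protein synthesis in general but favours translation of ATF4. ATF4 then pairs with C/EBP proteins on elements known as CARE and switches on amino acid transporters, serine and asparagine synthesis and many tRNA synthetases, the enzymes that load each tRNA with its amino acid. Because ATF4 is controlled largely through translation, its RNA level does not report its protein, and protein was not analysed here.

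Total counts ran from 11396193 in vehicle replicate 1 to 26030880 in rhSP-D replicate 1, and every member had at least 144 counts in every library. Of 5 epithelial markers, KRT8, KRT18 and CDH1 were plentiful while EPCAM and KRT19 were scarce, at means of 1.82 and 1.83 CPM (counts relative to library size after TMM normalization) in vehicle. The summed epithelial markers were between 9282 and 9400 CPM in the vehicle libraries and between 9489 and 9669 CPM in the rhSP-D ones, with KRT18 the one marker of the 5 that passed the edgeR test, and their part in the results was not tested. Markers of blood cells summed to at most 5.17 CPM, with PTPRC and CD3E at or near 0. Most of that sum was CD14, at 3.89, 3.74 and 4.08 CPM in vehicle replicates 1, 2 and 3. Markers of fibroblasts summed to at most 13.4 CPM, with DCN at 0 and 1 tested marker at a vehicle mean of 11.5 CPM. VWF and CDH5 of endothelium summed to at most 0.117 CPM. In bulk libraries, fewer cells that express a gene and less RNA per cell cannot be told apart.

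Members of this response moved in both directions and by small amounts. Of the 43 genes 12 changed, 6 higher and 6 lower in rhSP-D, where changed means an adjusted p under 0.05 over all 15848 genes tested (edgeR quasi-likelihood test, Benjamini-Hochberg). Over all genes tested 15.9% changed, 9.31% higher and 6.63% lower. Members are more abundant than most genes, with a median of 167 CPM in vehicle against 18.4 CPM, and among the 9844 genes with a vehicle mean of at least 10 CPM, which includes every member, 24.2% changed. The share of members, 27.9%, was thus close to that background. ATF4, PHGDH, SLC1A5, SLC3A2, QARS and GARS rose, and SLC7A11, CHAC1, STC2, SESN2, TRIB3 and CEBPG fell. The 3 rhSP-D values lay wholly above the 3 vehicle values for 9 members and wholly below for 10, against 16.2% and 15.4% of all genes tested, or 31.5% in either direction. These shares cover genes of all levels, and none was taken for genes at 10 CPM and above. No member changed by more than 14.3%, the fall of SLC7A11, and the median log2 change of all members was 0.010 against -0.0063 for all genes.

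**Figure D1:**
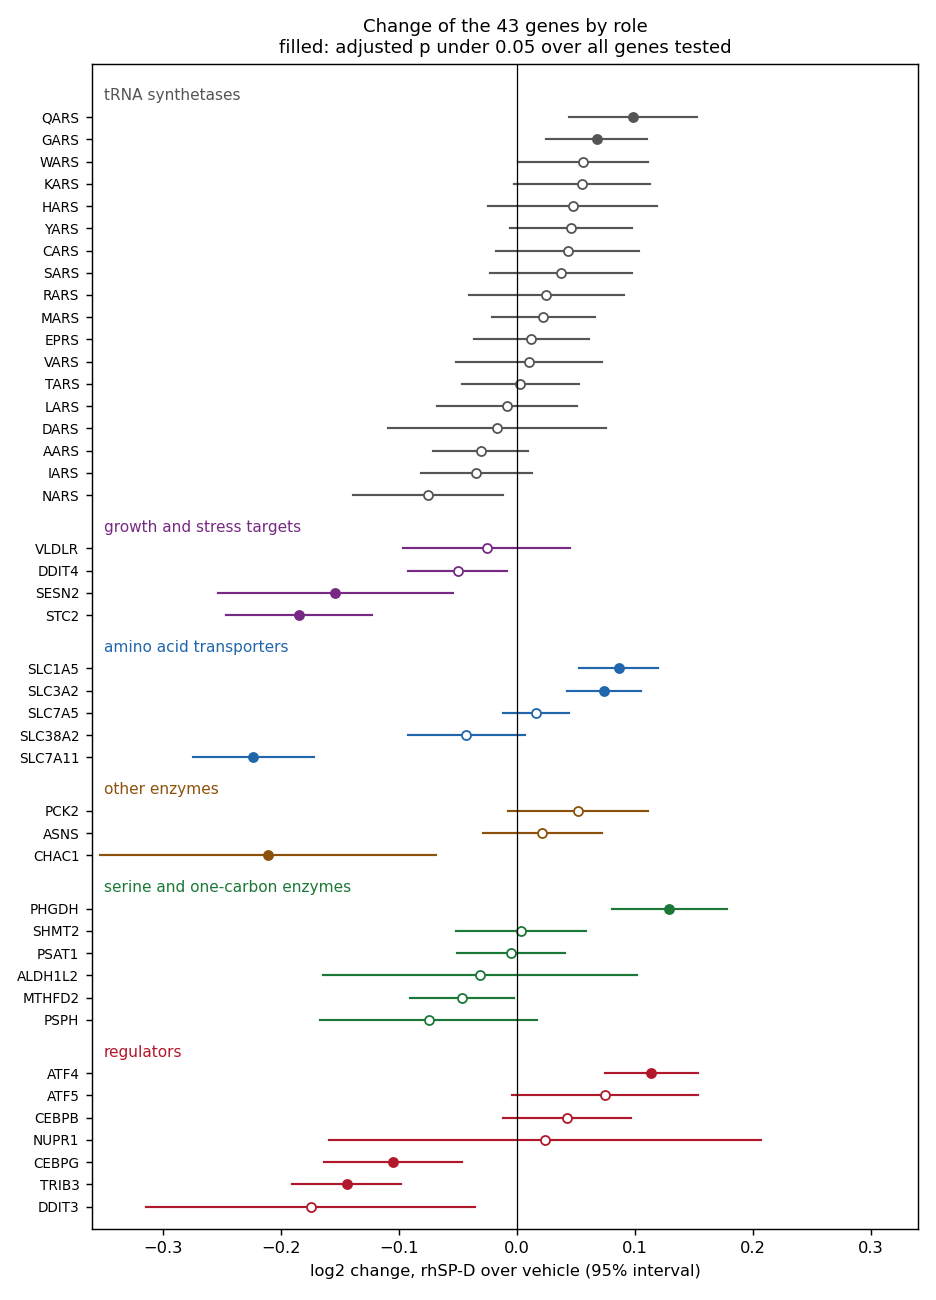
Log2 change of rhSP-D over vehicle (horizontal axis) for each of the 43 genes, grouped by role, with 95% intervals from the fit to 3 samples per group; filled points passed the test over all genes. The 18 synthetases lie between -0.08 and 0.10, while transporters and regulators reach from -0.22 to 0.11.

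CARE elements were looked for because they are the sites through which ATF4 and C/EBP proteins act. The letters TGATGNAA were searched on both strands of RefSeq promoter windows (GRCh38.p14, 250 bases before to 50 after a start site). Of the 43 members 34 had a window, and 12 of these 34 (35.3%) held the letters, against 4.46% of all 27305 genes with a window. By window the share over all genes was 3.62% of 35116. A match describes the letters only, and its absence says only that they are not in this window.

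Among genes with nearly the same element, CEBPG and CHAC1 fell, and SLC1A5 and GARS rose. ASNS, AARS, CARS, IARS and NARS did not pass the test. The calls of CEBPG, CHAC1, SLC1A5 and GARS were each lost under some of the alternative settings. Stretches around the element are written 5′ to 3′ on the strand of the gene, with the element in capitals. The element reads TTNCATCA where it lies on the opposite strand.
CEBPG: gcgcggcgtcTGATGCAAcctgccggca
CHAC1: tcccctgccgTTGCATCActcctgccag
ASNS: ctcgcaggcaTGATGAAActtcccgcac
SLC1A5: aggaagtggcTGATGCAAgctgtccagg
AARS: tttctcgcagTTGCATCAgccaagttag
CARS: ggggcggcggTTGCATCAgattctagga
IARS: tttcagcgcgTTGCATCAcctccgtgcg
GARS: tacgcggcgaTTTCATCAtgctccgagc
NARS: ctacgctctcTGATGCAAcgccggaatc

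These stretches lie at chr19:33374061-33374088 for CEBPG, chr15:40953252-40953279 for CHAC1, chr7:97872459-97872486 for ASNS and chr19:46784894-46784921 for SLC1A5. Those of the synthetases lie at chr16:70289676-70289703 for AARS, chr11:3057408-3057435 for CARS, chr9:92293693-92293720 for IARS, chr7:30594835-30594862 for GARS and chr18:57621805-57621832 for NARS. The genes ASNS, SLC1A5, AARS, CARS, IARS and NARS are on the minus strand and the others on the plus strand. MARS, TARS and SLC3A2 also held the letters. Start sites of the windows need not be the outermost end of a gene. The SLC1A5 stretch lies well inside the gene (46774883 to 46788594), and 1 of its 3 windows matched. So does that of SLC3A2, at 62881726 to 62881748 in a gene from 62856102 to 62888875, again in 1 of 3 windows. That of MARS lies at 57488054 to 57488081 in a gene from 57475445 to 57517569.

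The regulators split. ATF4 (ENSG00000128272, chromosome 22, 39519695 to 39522685), the activator at the centre of the response, was at 509, 526 and 509 CPM in vehicle replicates 1, 2 and 3 and at 552, 565 and 555 CPM in rhSP-D replicates 1, 2 and 3. All 3 rhSP-D values lay above all 3 vehicle values, and the rise was 8.19% (log2 change 0.11 ± 0.019 SE, adjusted p = 9.37e-05, 95% interval 5.27% to 11.2%). With trends on gene length and GC content removed the ATF4 call was lost, at a log2 change of 0.047 (adjusted p = 0.110). TRIB3 (ENSG00000101255, chromosome 20, 362835 to 397559), a pseudokinase induced by ATF4 that restrains it in turn, went the other way. It was at 321, 310 and 308 CPM in vehicle and at 287, 280 and 281 CPM in rhSP-D, with no overlap, and fell by 9.53% (log2 change -0.14 ± 0.022 SE, adjusted p = 2.78e-05).

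CEBPG (chromosome 19, 33373330 to 33382686), a C/EBP protein that pairs with ATF4, was at 169, 168 and 159 CPM in vehicle and at 153, 151 and 157 CPM in rhSP-D. It fell by 7.04% (log2 change -0.11 ± 0.028 SE, adjusted p = 0.0101), and its groups did not overlap. The call was lost without vehicle replicate 1 (adjusted p = 0.0520) or 2 (adjusted p = 0.0647). DDIT3, which encodes the stress factor CHOP, was at 24.4, 28.5 and 26.9 CPM in vehicle and at 22.5, 22.8 and 26.1 CPM in rhSP-D. Its highest rhSP-D value lay above its lowest vehicle value, and it did not pass the test (log2 change -0.17 ± 0.068 SE, adjusted p = 0.0807). It passed without vehicle replicate 1 (log2 change -0.22, adjusted p = 0.0400) and without rhSP-D replicate 3 (-0.25, adjusted p = 0.0192). Exons on the other strand cover 413 of its 1307 exonic nt, and MARS lies on that strand, so part of its reads cannot be assigned to either gene.

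ATF5, a relative of ATF4 that is also controlled through translation, had 67.5, 71.4 and 68.6 CPM in vehicle and 74.0, 69.9 and 74.8 CPM in rhSP-D, with overlap (adjusted p = 0.209). CEBPB, a C/EBP activator, had 384, 353 and 354 CPM in vehicle and 377, 367 and 374 CPM in rhSP-D (log2 change 0.042, adjusted p = 0.319). Its highest and lowest values both came from the vehicle group, and without vehicle replicate 1 it passed at a log2 change of 0.080 (adjusted p = 0.0182). NUPR1, a small stress-induced chromatin protein, was the scarcest member and averaged 12.6 ± 0.24 CPM (SD, n = 3) with vehicle and 12.7 ± 1.19 CPM (SD, n = 3) with rhSP-D. Its 95% interval from -10.5% to 15.4% was the widest of the 43.

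**Figure D2:**
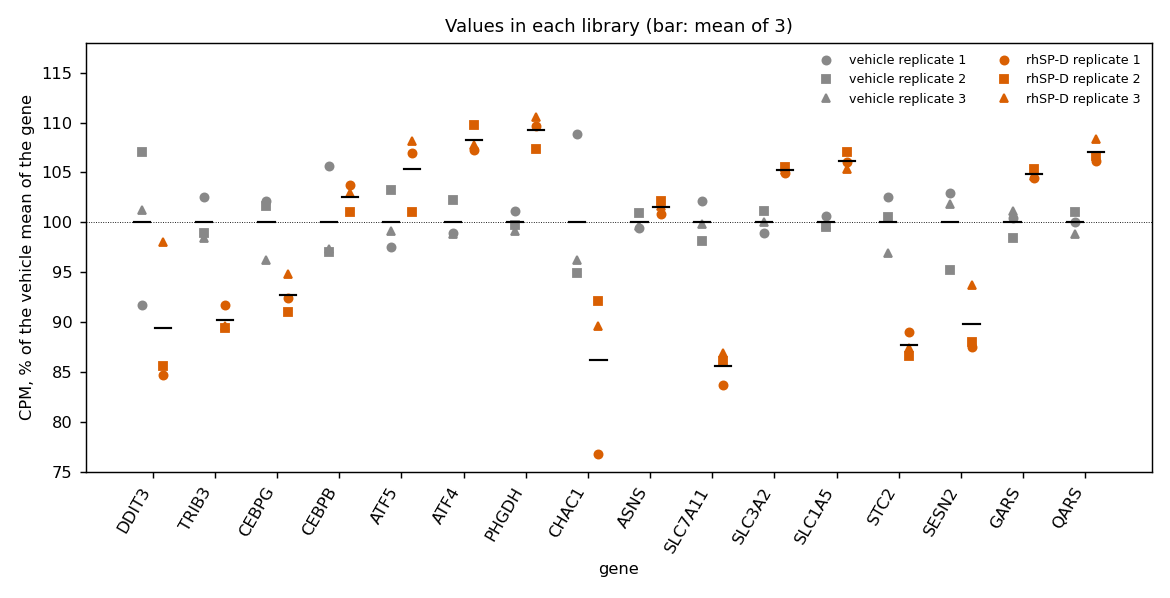
CPM of each library as a percentage of the vehicle mean of the gene (vertical axis) for the 12 changed genes and for ATF5, DDIT3, CEBPB and ASNS; symbols mark the replicate number and bars the mean of 3. CHAC1 spreads most, with rhSP-D replicate 1 lowest and vehicle replicate 1 highest, while the 3 values of SLC3A2 and SLC1A5 lie close together in each group.

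Of the 6 serine and one-carbon enzymes 1 rose, against 9.31% of all genes tested, and the other 5 did not pass the test. PHGDH (ENSG00000092621, chromosome 1, 119648411 to 119744226), which commits 3-phosphoglycerate to serine, was at 207, 205 and 203 CPM in vehicle and at 225, 220 and 227 CPM in rhSP-D. The groups were well apart, and the rise was 9.36% (log2 change 0.13 ± 0.024 SE, adjusted p = 2.62e-04). The next enzymes of the path did not pass the test: PSAT1, the aminotransferase, averaged 322 ± 5.08 CPM with vehicle and 320 ± 7.94 CPM with rhSP-D, and PSPH, the phosphatase, 47.1 ± 1.51 and 44.8 ± 0.84 CPM (SD, n = 3). The interval for PSAT1 ran from -3.49% to 2.87%, so a change as large as that of PHGDH lies outside it. The difference between PHGDH and PSAT1 was itself not tested.

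The mitochondrial folate enzymes did not pass either. SHMT2, which splits serine into glycine and a one-carbon unit, had a log2 change of 0.0033 (adjusted p = 0.959). MTHFD2, which oxidizes that unit, had one of -0.047 (adjusted p = 0.148) although its 3 rhSP-D values lay below its 3 vehicle values. ALDH1L2, which converts the folate carrying it, had one of -0.031 (adjusted p = 0.810). The median log2 change of the 6 serine and one-carbon enzymes was -0.018.

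ASNS, asparagine synthetase, is a classic gene of amino acid shortage and did not pass the test. It was at 180, 183 and 181 CPM in vehicle and at 183, 185 and 184 CPM in rhSP-D, with overlap, and its log2 change was 0.021 ± 0.025 SE (adjusted p = 0.632). The 95% interval from -2.01% to 5.10% bounds a change in either direction. PCK2, the mitochondrial enzyme that makes phosphoenolpyruvate, had a log2 change of 0.051 (adjusted p = 0.258).

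CHAC1 (chromosome 15, 40952962 to 40956519), which degrades glutathione and is among the most inducible ATF4 targets, was at 41.8, 36.5 and 36.9 CPM in vehicle and at 29.5, 35.4 and 34.4 CPM in rhSP-D. All rhSP-D values were lower, and it fell by 13.6% (log2 change -0.21 ± 0.068 SE, adjusted p = 0.0409). That call rests on few libraries: it was lost with any library left out other than rhSP-D replicate 2, and with rhSP-D replicate 1 left out, the library of greatest depth, the log2 change was -0.12 (adjusted p = 0.226). It was also lost with DESeq2 (adjusted p = 0.0551) and with a replicate block (adjusted p = 0.149).

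Among the transporters SLC7A11 fell, and SLC3A2 and SLC1A5 rose. SLC7A11 (ENSG00000151012, chromosome 4, 138164097 to 138242349), the subunit of system xc- that exchanges glutamate for cystine, was at 233, 224 and 228 CPM in vehicle and at 191, 196 and 198 CPM in rhSP-D. The gap between the groups was many times the spread within them, and the fall of 14.3% (a log2 change of -0.22 ± 0.025 SE, adjusted p = 1.61e-07) had the smallest p of all members. SLC7A11 is also a target of NRF2, a factor that answers oxidative stress. Its partner SLC3A2 (chromosome 11, 62856102 to 62888875), the heavy chain shared with SLC7A5, was at 1310, 1339 and 1324 CPM in vehicle and at 1391, 1398 and 1394 CPM in rhSP-D. SLC3A2 rose by 5.25% (log2 change 0.074 ± 0.015 SE, adjusted p = 9.54e-04), with no overlap. The SLC3A2 call was lost with library totals alone (log2 change 0.033, adjusted p = 0.130).

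SLC1A5 (chromosome 19, 46774883 to 46788594), the glutamine carrier ASCT2, was at 841, 832 and 834 CPM in vehicle and at 886, 895 and 880 CPM in rhSP-D. It rose by 6.14% (log2 change 0.086 ± 0.016 SE, adjusted p = 4.05e-04). The SLC1A5 call was lost with library totals alone and with length and GC trends removed, where the log2 change was 0.023 (adjusted p = 0.447). SLC7A5, the leucine carrier LAT1 and the most abundant member, was at 3057, 3045 and 3036 CPM in vehicle and at 3083, 3094 and 3062 CPM in rhSP-D. Its groups did not overlap, but the difference of 1.12% did not pass (adjusted p = 0.486). SLC38A2, which is induced when amino acids are withdrawn, had a log2 change of -0.043 (adjusted p = 0.259).

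Of the 4 growth and stress targets 2 fell, against 6.63% of all genes tested, and the median log2 change was -0.10. In either direction 15.9% of all genes changed, and 24.2% of those with a vehicle mean of at least 10 CPM. STC2 (chromosome 5, 173314713 to 173329503), a secreted glycoprotein, was at 133, 131 and 126 CPM in vehicle and at 116, 113 and 114 CPM in rhSP-D, and fell by 12% (log2 change -0.18 ± 0.030 SE, adjusted p = 5.89e-05). SESN2 (chromosome 1, 28259527 to 28282491), a leucine sensor that restrains the growth kinase complex mTORC1, was at 45.5, 42.1 and 45.1 CPM in vehicle and at 38.7, 38.9 and 41.5 CPM in rhSP-D. It fell by 10.1% (log2 change -0.15 ± 0.049 SE, adjusted p = 0.0287), and its groups lay just apart. The SESN2 call was lost with DESeq2 (adjusted p = 0.101) and without vehicle replicate 1 or 3 or rhSP-D replicate 1 or 2 (log2 changes -0.14 to -0.13). DDIT4, another inhibitor of mTORC1, was at 357, 365 and 368 CPM in vehicle and at 351, 352 and 350 CPM in rhSP-D (adjusted p = 0.0929), and VLDLR, a lipoprotein receptor, had a log2 change of -0.026 (adjusted p = 0.688), which was 0.071 with length and GC trends removed (adjusted p = 0.217).

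The tRNA synthetases moved little. Of 18 genes 2 rose, QARS and GARS, and 0 fell. The share changed was 11.1%, against 15.9% of all genes tested and 24.2% of those at 10 CPM and above. At an unadjusted p under 0.05 edgeR had 3 higher and 1 lower, with no share of all genes taken at that threshold. DESeq2 and limma-voom each called 2 higher and 0 lower after adjustment. Over all genes tested DESeq2 called 6.41% higher and 3.27% lower, and limma-voom 9.34% and 6.9%. QARS (chromosome 3, 49095932 to 49105135), which charges tRNA with glutamine, was at 153, 154 and 151 CPM in vehicle and at 162, 163 and 165 CPM in rhSP-D, a rise of 7.04% with no overlap (log2 change 0.098 ± 0.026 SE, adjusted p = 0.00941). The QARS call was lost without vehicle replicate 3 (adjusted p = 0.0624). GARS (chromosome 7, 30594681 to 30634033), the glycine enzyme of cytosol and mitochondria, was at 313, 307 and 315 CPM in vehicle and at 326, 328 and 326 CPM in rhSP-D, a rise of 4.79% (log2 change 0.068 ± 0.021 SE, adjusted p = 0.0252). The GARS call was lost without vehicle replicate 2 or without any single rhSP-D library, with log2 changes of 0.058 to 0.070.

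The other 16 synthetases ran from a log2 change of -0.075 for NARS (adjusted p = 0.0998, or 0.0141 without vehicle replicate 1) to 0.056 for WARS (adjusted p = 0.170). Over these 16 the 95% intervals reached no lower than -9.16% and no higher than 8.55%, so any change beyond those bounds lies outside the intervals. The rhSP-D values lay wholly above vehicle for 4 synthetases, QARS, GARS, WARS and HARS, and wholly below for IARS. Over all genes tested, which are mostly scarcer, 16.2% lay wholly above and 15.4% wholly below. AARS, the alanine enzyme and the synthetase with the highest level, averaged 431 ± 5.40 CPM (SD, n = 3) with vehicle and 421 ± 4.72 CPM (SD, n = 3) with rhSP-D.

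Enzymes of the multisynthetase complex, the particle that holds several synthetases together, did not stand out in count. Of its 8 members here (EPRS, IARS, LARS, MARS, QARS, KARS, RARS and DARS) 1 rose and their median was 0.017, and of the other 10 synthetases 1 rose and their median was 0.040. That split was chosen after the values were known.

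Set side by side, the synthetases had 2 of 18 genes higher and 0 lower, the transporters 2 of 5 higher and 1 lower, and the serine and one-carbon enzymes 1 of 6 higher and 0 lower. Their median log2 changes were 0.023, 0.016 and -0.018. Over all genes tested 9.31% were higher and 6.63% lower, and 24.2% changed among those with a vehicle mean of at least 10 CPM. The standard deviation of the log2 change across genes was 0.042 for the synthetases and 0.10 for the other 25 members, of which 4 rose and 6 fell. Summed counts of the synthetases were 0.578, 0.588 and 0.585 times those of the transporters in vehicle replicates 1, 2 and 3 and 0.580, 0.573 and 0.585 times in rhSP-D, so the groups overlapped. Against the serine and one-carbon enzymes the same sum was 3.07, 3.17 and 3.17 times as large in vehicle and 3.18, 3.16 and 3.13 times in rhSP-D, again with overlap. No test was made between the sets of genes.

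With library totals in place of TMM scaling the medians of the synthetases and transporters turned negative, at -0.018 and -0.025, and that of the serine and one-carbon enzymes was -0.059. DESeq2 size factors and upper-quartile factors changed the sign of none of these 3. TMM factors lay between 1.01 and 1.02 for vehicle libraries and between 0.985 and 0.987 for rhSP-D libraries. With library totals alone the median of all genes was -0.047 and of the synthetases 0 were higher and 3 lower, AARS, IARS and NARS. Measured from the median of all genes, the synthetases were 0.030 higher under both scalings. With totals alone 2 members were higher, ATF4 and PHGDH, and 13 lower, and of all genes 5.4% were higher and 12.4% lower, against 9.31% and 6.63% before.

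Removing trends on gene length and GC content moved several of these values. ATF4 (exonic length 2514 nt, 56.7% GC) and SLC1A5 lost their calls, with the values given beside them. CEBPG also lost its call (log2 change -0.060, adjusted p = 0.186). Some other falls were larger: TRIB3 was at -0.20 (adjusted p = 2.23e-08), CHAC1 at -0.30 (adjusted p = 0.0185), and DDIT3 and DDIT4 now passed, at -0.24 (adjusted p = 0.0158) and -0.14 (adjusted p = 6.20e-06). SLC7A11 (9645 nt, 35.4% GC) stayed lower, at -0.12 rather than -0.22 (adjusted p = 4.09e-04), and PHGDH rose to 0.17 (adjusted p = 3.88e-06).

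Of the 18 synthetases 14 had a higher log2 change under this correction than before, and AARS, SARS, VARS and QARS a lower one. Over all genes in both fits 56.2% had a higher one, and the median of all genes went from -0.0063 to 0.0094. The median of the synthetases went from 0.023 to 0.064, and 6 were higher: GARS, QARS, CARS, EPRS, WARS and HARS. With a replicate block added to the correction 2 of these passed, GARS and HARS, and the other 4 had adjusted p between 0.0503 and 0.0622. The background for the calls without the block was 8.28% higher and 2.8% lower. It covers genes of all levels, and none was taken for genes as abundant as the synthetases. The synthetases have a median exonic length of 5584 nt, against 2954 nt for the regulators and 4671 nt for all genes tested. LARS (8118 nt, 41.5% GC) went from -0.0084 to 0.085 (adjusted p = 0.0508) and HARS (7853 nt, 46.8% GC) from 0.047 to 0.11 (adjusted p = 0.0292). Which of the values is nearer to the cells' RNA was not tested.

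**Figure D3:**
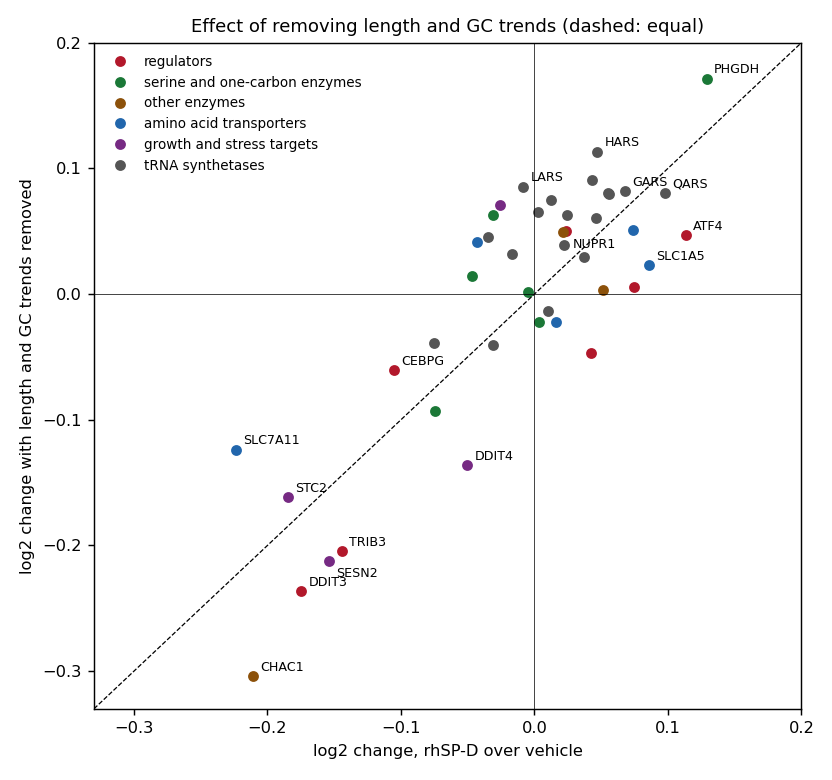
Log2 change of each member as fitted (horizontal axis) and after removal of length and GC trends (vertical axis), coloured by role; the dashed line marks equal values. Most synthetases sit above the line, and ATF4, SLC1A5, TRIB3, CHAC1 and DDIT4 sit below it.

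Of the 12 changed members 4 kept their call under all 17 alternative settings: TRIB3, PHGDH, SLC7A11 and STC2. TRIB3 ranged from -0.21 to -0.13 over those settings, PHGDH from 0.088 to 0.17, SLC7A11 from -0.26 to -0.12 and STC2 from -0.23 to -0.16.

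Among the genes whose promoter stretches are shown or named above, CEBPG and CHAC1 fell, SLC1A5, SLC3A2 and GARS rose, and ASNS, AARS, CARS, IARS, MARS, NARS and TARS did not pass the test. Of 14 synthetases with a window 7 held the element, and their median log2 change was 0.0026, against 0.047 for the 7 without it. Among the 20 other members with a window the order was reversed. Their medians were 0.021 for the 5 with the element and -0.026 for the 15 without it. Over all members with a window the medians were 0.012 with the element and 0.020 without it. The changed genes ATF4, TRIB3, PHGDH, SESN2, STC2 and QARS had windows without these letters.

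Levels of the members per length of exon spanned a wide range. In vehicle SLC7A5 was highest at 642 CPM per kb, followed by SLC3A2 at 256 and SLC1A5 at 251, with ATF4 at 205 CPM per kb. NUPR1 at 2.21 and ALDH1L2 at 3.03 CPM per kb were lowest. The synthetases ran from 9.82 for HARS to 95.7 CPM per kb for AARS, with a median of 32.4, close to ASNS at 40.7. Lengths are of all exons of a gene merged (GENCODE 29) and can overstate the transcript in use.

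**Figure D4:**
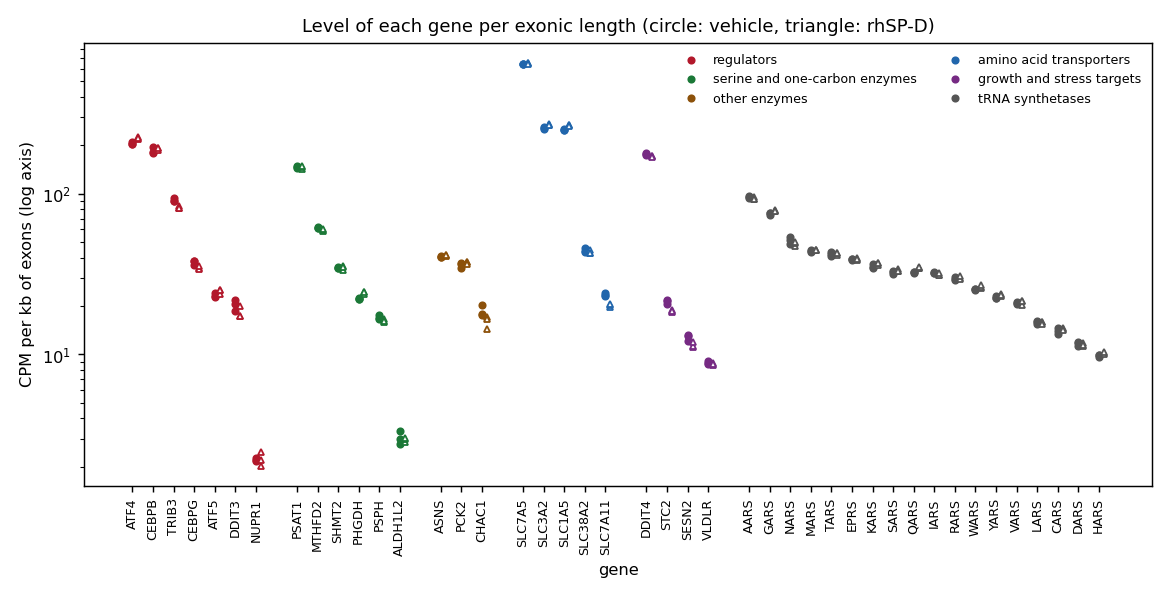
CPM per kb of merged exons on a log axis for each gene by role; circles are the 3 vehicle libraries and triangles the 3 rhSP-D libraries. The transporters SLC7A5, SLC3A2 and SLC1A5 top the plot, and circles and triangles of nearly every gene lie close together beside the differences between genes.

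Exons of 20 of the 43 members overlap exons of the opposite strand, among them 3 changed genes, SLC7A11, SLC1A5 and GARS. The library kit that the labels name is not a directional one, so reads of both strands cannot be told apart there. Pseudogenes named after members, such as ATF4P1 and SLC7A5P2, had at most 15 counts in any library.

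Other genes of the pathway, taken from lists that do not overlap the members, changed in both directions. Their counts are to be read against the 15.9% of all genes tested that changed, or 24.2% of those at 10 CPM and above. With the trends removed the shares over genes of all levels were 8.28% higher and 2.8% lower. With DESeq2 they were 6.41% higher and 3.27% lower. Of 18 tested genes for eIF2, its kinases, its exchange factor eIF2B and its phosphatase subunits 1 rose and 2 fell. EIF2S2, the beta subunit of eIF2, rose by 10.7% and the kinase EIF2AK2, or PKR, fell by 13.8%, and GCN1, a coactivator of the amino acid sensor GCN2, fell by 5.80%. The kinases EIF2AK3 (PERK) and EIF2AK4 (GCN2) had log2 changes of -0.16 and -0.051 and did not pass (adjusted p = 0.202 and 0.615). After removal of length and GC trends EIF2S2 alone of these 18 was called, and EIF2AK2 was at -0.10 (adjusted p = 0.135).

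Among 18 tested other reported ATF4 targets 4 rose and 3 fell. EIF4EBP1, which holds back cap-dependent translation, was at 197, 200 and 193 CPM in vehicle and at 227, 225 and 223 CPM in rhSP-D, a rise of 14.6%. The glutamine carrier SLC38A1 fell by 8.43%, and the arginine and lysine carrier SLC7A1 fell by 9.83%. The other 4, named after their values were seen, were CTH of cysteine synthesis, PYCR1 of proline synthesis and the cytokine GDF15, which rose by 13.8%, 9.20% and 10.4%, and the tRNA exporter XPOT, which fell by 8.32%. After removal of length and GC trends CTH was higher and SLC7A1 lower, and the others did not pass, with EIF4EBP1 at 0.072 (adjusted p = 0.0537).

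Synthetases outside the 18 gave few calls. Of 17 mitochondrial tRNA synthetases 0 passed by edgeR, DESeq2 or limma-voom, with 2 higher and 2 lower at an unadjusted p under 0.05 in edgeR and a median of 0.0045. For unadjusted counts, here and for the folate genes below, no share of all genes was taken. These 17 were scarcer than the 18, with a median of 26.8 against 157 CPM in vehicle. Their log2 changes ran from -0.15 to 0.15, with SE from 0.024 for IARS2 to 0.14 for PARS2, so most are less closely bounded. CARS2 of these passed once the trends were removed (0.14, adjusted p = 0.0307). Of 5 other cytosolic subunits and scaffolds 1 rose, AIMP2, by 9.14%, and DESeq2 called 0. Their median was 0.072. Of 14 tested other folate genes 0 passed by any of the 3 tools, with 0 higher and 2 lower at an unadjusted p under 0.05 in edgeR and a median of 0.010. Among 15 tested other amino acid transporters SLC1A3, a glutamate carrier, rose by 7.81% and SLC1A4, a neutral amino acid carrier, fell by 14.7%. Both kept their calls after removal of the trends, when 2 more, SLC7A7 and SLC1A2, were higher.

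Genes of amino acid sensing and mTORC1 had 6 of 21 higher and 2 lower, 38.1% in all against those backgrounds of 15.9% and 24.2%. DESeq2 called 4 higher and 1 lower, against 6.41% and 3.27% of all genes tested. SESN3, a relative of SESN2, was at 24.9, 23.1 and 28.0 CPM in vehicle and at 18.7, 20.8 and 21.0 CPM in rhSP-D and fell by 20.9%, and LAMTOR2 and LAMTOR5, parts of the scaffold that docks mTORC1 at the lysosome, rose by 13.2% and 10.8%. With the trends removed 2 were higher, RHEB and LAMTOR5, and 1 lower, SESN3. Of 14 genes of the ATF6 and XBP1 arms of the unfolded protein response 1 rose, SDF2L1, and 3 fell, among which EDEM1 fell by 12.1% and SEL1L fell by 7.61%. DESeq2 called 0 of them higher and 1 lower. None of these 4 passed with the trends removed, when the list had 1 gene lower, PDIA4.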

How the data were processed

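Poly(A) RNA was measured by paired-end sequencing. The values the authors deposited are raw counts of reads for each gene in 6 samples. The submitters' processing notes name STAR 2.7.0a, featureCounts 2.0.0, cutadapt and the build GRCh38 (hg38). The strand setting and annotation release were not found in the sources used here. Samples were grouped by title. Whether replicates were separate cultures is not stated, so the p-values reflect differences among these 6 libraries, whose scatter could be technical. Chi-square per degree of freedom was 1.88 to 2.13 within groups and 3.79 to 6.2 between them, so no library copied another.

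Genes that passed filterByExpr (count 10, total 15) were tested with a robust edgeR 4.0.16 quasi-likelihood fit in R 4.3.3 with TMM factors, 2-sided. SE and 95% intervals follow from the test statistic. Members and lists were chosen with earlier results of these data known. Values in every library are given for changed members and for ATF4, ATF5, DDIT3, TRIB3, CEBPB, CEBPG, CHAC1 and ASNS, with a few more chosen after their values were seen; of each other list, the 3 smallest p among changed genes. Of the listed genes PECAM1 was not matched.

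Alternatives were other scalings, filters and thresholds, a replicate block, each library left out, DESeq2 1.42.0, limma-voom (limma 3.58.1), thinning, and per-library spline trends (5 degrees of freedom each) on transcript GC and log2 exonic length, from GENCODE 29, which covers 96.8% of tested genes. On simulated data of this comparison over 15621 genes, 16.3% of genes changed 1.1-fold and 42.9% of those changed 1.2-fold were recovered. These rates hold for genes of all levels, with a median of 18.4 CPM in vehicle over all genes tested. The members have a median of 167 CPM, and no rate was taken for them alone, so the intervals given for each member are the closer guide.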

Additional observations from a re-analysis of the deposited data

How the results depend on the processing

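Of 730 values of single members under the alternatives, 55, from 19 members, crossed 0, between -0.056 and 0.085, and none of them passed the test. With library totals alone, 856 genes were higher and 1961 lower in all, 2 and 13 among members, and 6 and 21 among the 8 other pathway lists, and medians were -0.017 for regulators, -0.059 for serine and one-carbon enzymes, -0.020 for other enzymes, -0.025 for transporters, -0.14 for growth and stress targets and -0.018 for synthetases. With length and GC trends removed, 429 genes were lower, 8 list genes were higher and 4 lower, and medians were -0.047 for regulators, 0.0082 for serine and one-carbon enzymes, 0.023 for transporters, -0.15 for growth and stress targets and 0.064 for synthetases. With the trends removed and a replicate block together, 360 genes were lower, 3 members higher, 7 list genes higher and 4 lower, and medians in the same order were -0.050, 0.0076, 0.023, -0.15 and 0.065. DESeq2 gave 518 genes and 7 list genes lower. Thinning gave 0.0069 for serine and one-carbon enzymes and -0.022 for regulators. At an adjusted p under 0.01, 939 genes were higher and 526 lower, with 3 members and 7 list genes lower. With 1 library left out, 1042 to 1336 genes were higher and 636 to 892 lower, 5 to 7 members higher and 4 to 6 lower, 9 to 14 list genes higher and 7 to 9 lower; the median was -0.056 to 0.052 for regulators, negative without rhSP-D replicate 1, and 0.014 to 0.035 for synthetases. Causes were not tested.

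Samples with the same number did not deviate together (r from -0.14 to -0.0035 over 9814 genes). For different numbers r ran from -0.0411 to 0.125. With 3 samples per group this cannot show whether samples were prepared in pairs. With a replicate block 6 members were higher and 5 lower, and 1374 genes were higher and 945 lower.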
